A study of Mus musculus with 17 samples.

Results

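The genes described here are the D-type cyclins Ccnd1, Ccnd2 and Ccnd3, their kinase partners Cdk4 and Cdk6, and the Cdk inhibitors Cdkn1a, Cdkn1b, Cdkn1c, Cdkn2c and Cdkn2d. All probe sets annotated with 1 of these 10 symbols were taken, which gave 26 probe sets for 10 genes out of 34945 probe sets for 18193 genes. Expression was measured on 17 Affymetrix mouse arrays. The RNA came from embryonic cortex of the transgenic line hGFAP eGFP, whose cells were separated by fluorescence sorting. The transgene puts enhanced green fluorescent protein (GFP) under the promoter of human GFAP, which marks radial glia, the stem and progenitor cells that line the ventricle, so the sort depends on where that promoter is active. At embryonic day 18 (E18) there was 1 group, of GFP-positive cells selected for Prominin (n = 4). At embryonic day 14 (E14) there were 4 groups: GFP-high Prominin-selected cells (n = 4), GFP-low Prominin-selected cells (n = 3), GFP-high cells (n = 3) and GFP-low cells (n = 3). The labels of the last 2 groups name no Prominin gate, and these cells are called ungated here. Prominin is a protein of the apical membrane of neural progenitors. All groups carried the same transgene, and the labels name no other allele and no treatment.

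D-type cyclins bind Cdk4 or Cdk6 in the G1 phase of the cell cycle, and the complexes phosphorylate the retinoblastoma protein, which releases E2F transcription factors and opens the way into S phase. Inhibitors of the INK4 family, here Cdkn2c (p18) and Cdkn2d (p19), bind Cdk4 and Cdk6 themselves. Inhibitors of the Cip/Kip family, Cdkn1a (p21), Cdkn1b (p27) and Cdkn1c (p57), act on cyclin-Cdk complexes more widely, and p21 is a well-known target of p53. In the embryonic cortex these genes are studied for the length of G1 in progenitors and for the exit of daughter cells from the cell cycle.

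Levels are given as log2(signal + 16) after quantile normalization of the deposited signals, so 1 unit is a doubling of the signal plus 16, and replicates are listed in the order of their numbers. Levels of different probe sets are not comparable with each other, so a gene is followed on the probe set with the highest mean over the 17 arrays, and its other probe sets are given beside it. A group mean at or below 6.0 was called dim. That is the 90th percentile of the group means of 22 measured genes restricted to other organs. No fold is given between 2 dim groups. The probe sets 1444323_at and 1438805_at of Ccnd3 and 1421679_a_at of Cdkn1a were dim in all 5 groups, and 1460291_at of Cdk6 was dim in all but the ungated GFP-high cells. Every adjusted p in the text is the two-sided p of limma's moderated test after Benjamini-Hochberg adjustment over all 34945 probe sets, and a call is an adjusted p under 0.05. Separate litters are not named for the samples of a group, so the p-values speak of the spread among these arrays alone, and part or all of that spread may be technical. In sorted bulk RNA, fewer cells that express a gene and less of its RNA per cell cannot be told apart.

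The arrays differed in ways that run along the groups. The Gapdh control, read near the 3′ and the 5′ end of its transcript, had a 3′ minus 5′ log2 difference of −0.21 to 1.00 on the 4 E18 arrays, 0.54 to 2.30 on the 7 E14 Prominin-selected arrays and −0.25 to 0.18 on the 6 ungated arrays. The Dap control probe set read 251.9 to 1176 on the E18 and ungated arrays. It read 848.8 on Prominin-selected GFP-high replicate 1 and 2.4 to 16.9 on the other E14 Prominin-selected arrays. The labels name one labelling kit (MessageAmp II) for the 11 Prominin-selected arrays and ungated GFP-high replicate 1, and another (Affymetrix IVT) for the other 5 ungated arrays. The part of these differences in the contrasts between ages and between gated and ungated cells was not tested. Where the kit is named as a term of the fit, its size came from ungated GFP-high cells alone, the only group with both kits. Markers of endothelial cells and pericytes were dim in 10 of 10 genes in ungated cells of both GFP levels and in 8 of 10 genes at E18, and those of microglia and macrophages were dim in at least 7 of 8 genes in every group. Markers of radial glia were above the dim level in at least 12 of 13 genes in every group.

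Cdk4 was called lower at E18 on all of its probe sets, and Cdk6 and Cdkn2c had the widest GFP differences in ungated cells. Cdkn1a was the inhibitor whose own highest group mean was in GFP-low Prominin-selected cells. For these reasons the promoter windows of these 4 members are shown. Each runs 5′ to 3′ on the strand of the gene, from 250 bases before to 50 bases after the annotated start, from RefSeq on GRCm38.p6. Capitals mark the GC box GGGCGG, the E-box CACGTG and the paired p53 core, found on either strand by letters alone. Cdk4 lies at chr10:127063285-127063584 on the plus strand, Cdk6 at chr5:3343643-3343942 on the plus strand, Cdkn1a at chr17:29090729-29091028 on the plus strand and Cdkn2c at chr4:109666707-109667006 on the minus strand. The annotated genes lie at chr10:127063535-127067288 (Cdk4), chr5:3341004-3531008 (Cdk6), chr17:29090979-29100722 (Cdkn1a) and chr4:109660876-109666756 (Cdkn2c), so the listed start of Cdk6 falls inside its gene. For Cdkn1a and Cdkn2c, which have 2 listed starts each, the upstream one is shown.
Cdk4: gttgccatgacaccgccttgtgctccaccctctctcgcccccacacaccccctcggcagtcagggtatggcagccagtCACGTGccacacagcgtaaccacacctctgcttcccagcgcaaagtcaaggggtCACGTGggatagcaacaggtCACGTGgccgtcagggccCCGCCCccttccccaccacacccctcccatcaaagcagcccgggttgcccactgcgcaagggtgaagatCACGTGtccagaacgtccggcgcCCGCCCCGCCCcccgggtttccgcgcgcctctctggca
Cdk6: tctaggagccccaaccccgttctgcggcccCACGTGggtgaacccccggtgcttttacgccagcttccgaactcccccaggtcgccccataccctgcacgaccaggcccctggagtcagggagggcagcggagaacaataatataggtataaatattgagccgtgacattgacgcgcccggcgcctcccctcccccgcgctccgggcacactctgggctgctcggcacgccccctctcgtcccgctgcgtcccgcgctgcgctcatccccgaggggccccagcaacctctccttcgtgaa
Cdkn1a: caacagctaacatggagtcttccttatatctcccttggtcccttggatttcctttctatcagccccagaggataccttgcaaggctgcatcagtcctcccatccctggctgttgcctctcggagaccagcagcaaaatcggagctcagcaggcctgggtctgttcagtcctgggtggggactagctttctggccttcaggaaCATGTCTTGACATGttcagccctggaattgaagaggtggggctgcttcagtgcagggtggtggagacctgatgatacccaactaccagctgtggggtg
Cdkn2c: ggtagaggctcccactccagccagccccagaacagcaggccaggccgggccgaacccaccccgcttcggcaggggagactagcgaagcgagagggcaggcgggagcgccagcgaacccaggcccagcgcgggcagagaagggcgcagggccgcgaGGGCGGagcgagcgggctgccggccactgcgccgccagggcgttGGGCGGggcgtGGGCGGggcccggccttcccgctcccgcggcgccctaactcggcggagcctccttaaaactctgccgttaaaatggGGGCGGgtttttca

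The Cdk4 window held 4 E-boxes, which start at −172, −118, −98 and −11 from the annotated start, and 3 GC boxes, 2 of which overlap. The Cdk6 window held 1 E-box at −220 and no GC box, the Cdkn1a window held 1 paired p53 core at −48, and the Cdkn2c window held 4 GC boxes. Over all 32841 mouse promoter windows of this length, 7.15% held the E-box, 35.7% the GC box and 0.713% the paired p53 core. Of the 10 windows listed for 7 of the member genes, 3 held the E-box, 7 the GC box and 1 the paired core. None of the 10 held an E2F site (TTTCCCGC, TTTCGCGC, TTTGCCGC or TTTGGCGC, either strand), which 2.27% of all windows held and which was present for 7 of 16 genes of the S-phase list that have a window. A match is a stretch of letters and not a measured binding site.

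Among the D-type cyclins, each on its brightest probe set, Ccnd1 had its highest mean in ungated GFP-high cells and Ccnd2 its highest means in Prominin-selected E14 cells of both GFP levels, while both had their lowest means in ungated GFP-low cells. Ccnd1 averaged 9.24 ± 0.12 (SD, n = 3) in ungated GFP-high cells, 8.75 ± 0.24 (n = 4) and 8.43 ± 0.05 (n = 3) in Prominin-selected GFP-high and GFP-low cells, 7.61 ± 0.24 (n = 4) at E18 and 7.26 ± 0.62 (n = 3) in ungated GFP-low cells. In that order only the last 2 groups overlapped. Ccnd2 averaged 12.27 ± 0.33 in Prominin-selected GFP-low cells and 12.14 ± 0.27 in Prominin-selected GFP-high cells, 11.66 ± 0.16 at E18, 11.54 ± 0.06 in ungated GFP-high cells and 9.27 ± 0.73 in ungated GFP-low cells. Its first 2 groups overlapped, as did E18 with ungated GFP-high cells, and ungated GFP-low cells stood apart from all others. Other probe sets gave other orders: 1417420_at and 1417419_at of Ccnd1 had their lowest means at E18 (7.51 and 6.32), and 1416124_at of Ccnd2 had its highest mean in ungated GFP-high cells (7.33). Ccnd3 gave no group that stood apart: its group means ran from 8.24 ± 0.15 in ungated GFP-high cells down to 6.72 ± 0.43 at E18, and each group overlapped the next.

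**Figure D1:**
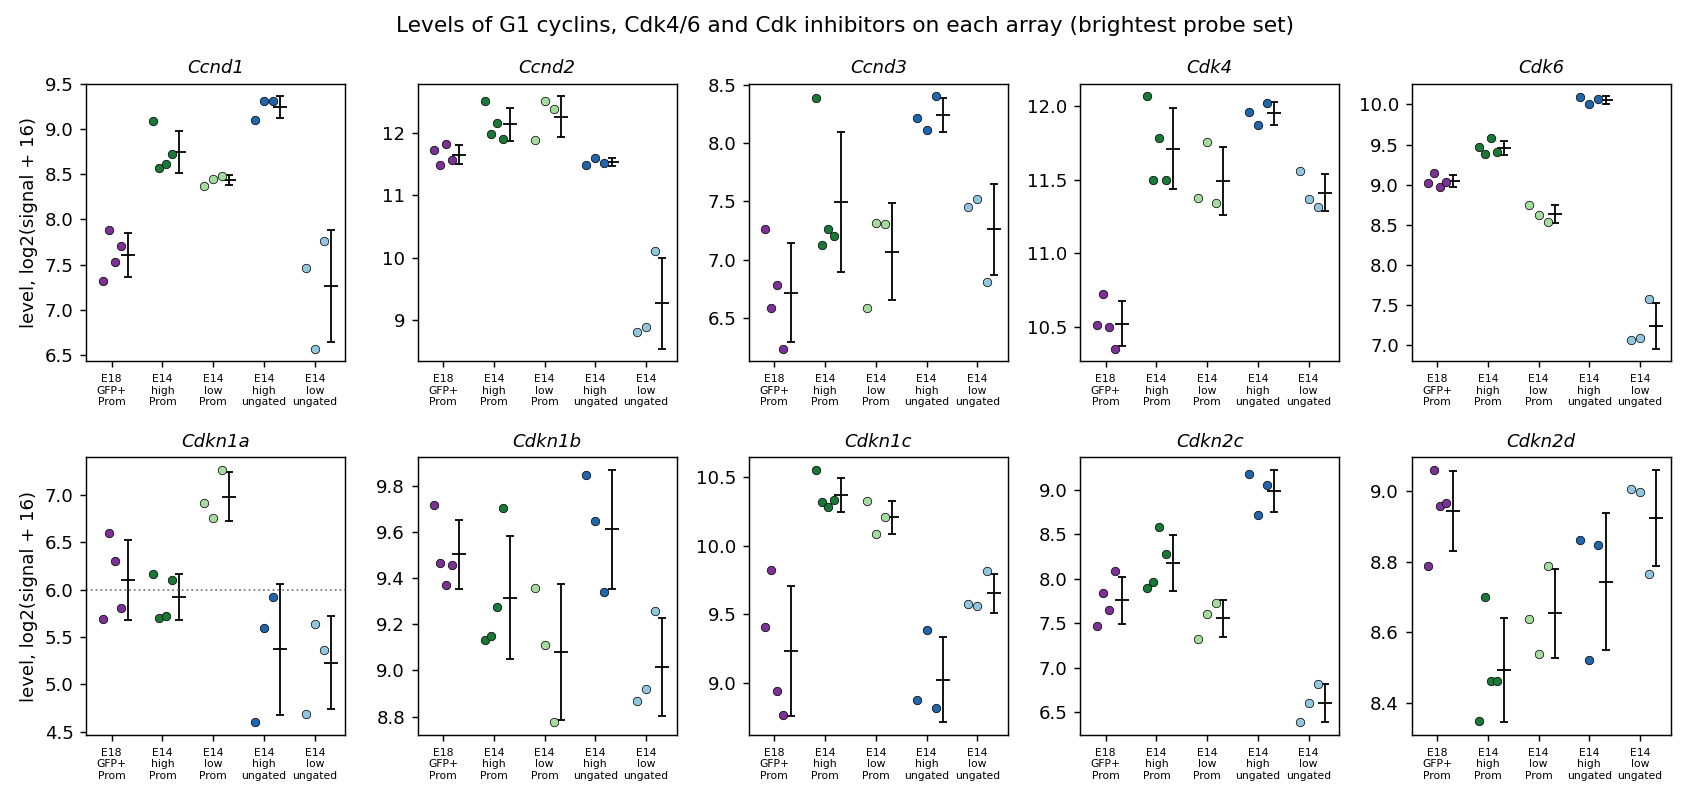
Level of each of the 10 genes on each of the 17 arrays, as log2(signal + 16) of its brightest probe set, with E18 GFP-positive Prominin-selected (Prom) cells at the left and then the 4 E14 groups; the dashes and bars are mean and SD, the dotted line in the Cdkn1a panel is the dim level of 6.0, and axes do not start at 0 and differ between panels. Cdk6 and Ccnd1 have their lowest means in ungated GFP-low cells, Cdk4 is lowest at E18, and Cdkn1a is highest in Prominin-selected GFP-low cells.

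Each on its brightest probe set, the 2 kinase genes had different orders. Cdk4 was within 11.41 ± 0.13 and 11.95 ± 0.08 in all 4 E14 groups, each overlapping the next, and 10.52 ± 0.15 at E18, below every E14 array. Cdk6 gave 5 groups that did not overlap: 10.05 ± 0.05 in ungated GFP-high cells, 9.46 ± 0.09 in Prominin-selected GFP-high cells, 9.05 ± 0.07 at E18, 8.63 ± 0.11 in Prominin-selected GFP-low cells and 7.24 ± 0.29 in ungated GFP-low cells. On 1455287_at of Cdk6, Prominin-selected GFP-low cells (8.94) had a higher mean than E18 (8.66), with overlap. On 1422439_a_at of Cdk4, ungated GFP-low cells (10.69) lay below the other E14 groups without overlap.

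The inhibitors had several patterns. Cdkn2c (p18) followed an order like that of Cdk6, with 8.98 ± 0.24 in ungated GFP-high cells, 8.18 ± 0.31 in Prominin-selected GFP-high cells, 7.76 ± 0.26 at E18, 7.56 ± 0.21 in Prominin-selected GFP-low cells and 6.60 ± 0.22 in ungated GFP-low cells. The middle 3 of these groups overlapped with each other in turn, and the highest and the lowest stood apart. Cdkn1c (p57) had the opposite place for ungated GFP-high cells: it was 10.37 ± 0.12 and 10.21 ± 0.12 in Prominin-selected GFP-high and GFP-low cells, 9.65 ± 0.14 in ungated GFP-low cells, 9.24 ± 0.47 at E18 and 9.03 ± 0.31 in ungated GFP-high cells, where E18 overlapped both ungated groups while these 2 did not overlap each other. Cdkn1a (p21) was 6.98 ± 0.26 in Prominin-selected GFP-low cells, where no array of another group reached its lowest one, 6.10 ± 0.43 at E18, and dim in the other 3 groups. Cdkn1b (p27, on 1434045_at) and Cdkn2d (p19) had narrow ranges: their group means ran from 9.01 ± 0.21 to 9.61 ± 0.26 and from 8.49 ± 0.15 to 8.94 ± 0.11, and every group overlapped its neighbour in the order. The other Cdkn1b probe set, 1419497_at, ran from a dim 5.24 ± 0.42 at E18 to 7.43 ± 0.43 in Prominin-selected GFP-high cells.

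Among E14 Prominin-selected cells, the GFP contrast concerned Cdk6. GFP-high cells had 1.77-fold more Cdk6 than GFP-low cells, and no other member was called. The call was the only one among 10 members, against 0.726% of all 18193 genes called in either direction and 0.159% called higher. Groups did not overlap for 4 of the 10 genes, against 13.2% of all genes, and the members' median log2 fold change was 0.23 against 0.00 over all genes. Cdk6 read 9.46, 9.38, 9.58 and 9.40 on the GFP-high arrays and 8.75, 8.62 and 8.53 on the GFP-low arrays. Every GFP-high array lay above every GFP-low array, and the log2 fold change was 0.82 ± 0.14 (SE, adjusted p = 0.0269). The second Cdk6 probe set, 1455287_at, gave 0.64 ± 0.15 (adjusted p = 0.0823). The call rested on all arrays: it was lost without any 1 of 6 of the 7 arrays (adjusted p = 0.054 to 0.1) and kept only without GFP-high replicate 2.

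Cdkn1a, the p53 target p21, lay the other way in these cells without passing the test. It read 6.16, 5.70, 5.73 and 6.10 on the GFP-high arrays and 6.92, 6.76 and 7.26 on the GFP-low arrays. The groups did not overlap, the GFP-high mean was dim, and the log2 fold change was −1.06 ± 0.24 (adjusted p = 0.0719). It passed with 1 probe set per gene tested (adjusted p = 0.0461) and without the dimmest 40% of probe sets (adjusted p = 0.0369). Cdkn2c gave 0.62 ± 0.21 (adjusted p = 0.249) and Ccnd1 0.31 ± 0.18 (adjusted p = 0.573), each with groups that did not overlap. Ccnd2 gave −0.12 ± 0.20 (adjusted p = 0.881), and its 7 probe sets ran from −0.24 to 0.13. Ccnd3, Cdk4, Cdkn1b, Cdkn1c and Cdkn2d lay between −0.16 and 0.43 with overlapping groups.

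Markers of other cells moved with this contrast. Of 15 markers of postmitotic neurons 5 were lower in GFP-high cells, and their summed signal was 14127 to 17195 on GFP-high arrays and 25894 to 27283 on GFP-low arrays. Of 7 Cajal-Retzius neuron markers 5 were lower, with a summed signal of 620.2 to 793.9 on GFP-high arrays and 3523 to 5036 on GFP-low arrays, and 5 of the 7 were dim in GFP-high cells against 0 in GFP-low cells. Their part in the Cdk6 and Cdkn1a values was not tested.

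In ungated cells the GFP contrast was wider and took in the cyclins. GFP-high cells had more Cdk6 (7.02-fold), Cdkn2c (5.20-fold), Ccnd2 (4.82-fold), Ccnd1 (3.94-fold) and Ccnd3 (1.97-fold) than GFP-low cells, so cyclins and a kinase that drive G1 were higher together with an inhibitor of that kinase. These were 5 of 10 genes called, all higher, against 14.1% of all genes called in either direction and 6.83% called higher. Groups did not overlap for 8 of the 10, against 34.3% of all genes, and the median log2 fold change of the members was 0.79 against −0.01 over all genes. Of the 26 probe sets 15 were called, all higher, against 11.9% of all probe sets called in either direction.

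Cdk6 read 10.095, 10.001 and 10.064 on ungated GFP-high arrays and 7.06, 7.09 and 7.57 on ungated GFP-low arrays. The gap between the groups was several times the spread within either, and the log2 fold change was 2.81 ± 0.21 (adjusted p = 0.000733), with 2.40 ± 0.27 on 1455287_at and 1.5 ± 0.25 on 1460291_at. Cdkn2c read 9.18, 8.72 and 9.06 in GFP-high cells and 6.39, 6.61 and 6.82 in GFP-low cells. Again no arrays overlapped (2.38 ± 0.22, adjusted p = 0.000984). Ccnd2 read 11.49, 11.61 and 11.53 in GFP-high cells and 8.81, 8.88 and 10.12 in GFP-low cells. GFP-low replicate 3 stood above the other 2 GFP-low arrays and still below every GFP-high array. The log2 fold change of Ccnd2 was 2.27 ± 0.36 (adjusted p = 0.00642), and all 7 of its probe sets were called higher, by 1.55 to 2.32. Ccnd1 read 9.10, 9.31 and 9.31 in GFP-high cells and 7.46, 6.57 and 7.76 in GFP-low cells. Its 3 probe sets were all called, by 1.67 to 1.98, the brightest with 1.98 ± 0.32 (adjusted p = 0.00712).

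Ccnd3 read 8.22, 8.11 and 8.40 in ungated GFP-high cells and 7.45, 7.52 and 6.81 in ungated GFP-low cells. It passed narrowly (0.98 ± 0.25, adjusted p = 0.0427), and the call was lost without any 1 of the 6 arrays (adjusted p = 0.0523 to 0.141). Cdk4 was 0.54 ± 0.18 (adjusted p = 0.114) and Cdkn1b 0.60 ± 0.22 (adjusted p = 0.145), both without overlap. Cdkn1c was the 1 member with groups apart in the other direction, at 8.88, 9.38 and 8.82 in GFP-high cells and 9.58, 9.56 and 9.82 in GFP-low cells (−0.63 ± 0.23, adjusted p = 0.133). Cdkn2d differed by −0.18 ± 0.20 (adjusted p = 0.658), and Cdkn1a was dim in both groups.

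Within the 5 arrays of the Affymetrix kit, that is without GFP-high replicate 1, the log2 fold changes of Cdk6, Cdkn2c, Ccnd2 and Ccnd1 were 2.79, 2.28, 2.30 and 2.05 (adjusted p = 0.00576, 0.00727, 0.0275 and 0.027). Without both GFP-high replicate 1 and GFP-low replicate 2, Ccnd2 was 2.10 with an adjusted p of 0.0666. Of 15 markers of postmitotic neurons 14 were lower in ungated GFP-high cells, and their summed signal was 11285 to 12077 in GFP-high cells against 44865 to 69414 in GFP-low cells. Of 13 markers of radial glia 12 were higher. Their part in the members' values was not tested.

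The difference between the 2 GFP contrasts was itself tested, as the gated minus the ungated contrast. Ccnd2 had a difference of −2.39 ± 0.39 (adjusted p = 0.00151), Cdk6 −1.99 ± 0.23 (adjusted p = 0.000193), Cdkn2c −1.75 ± 0.31 (adjusted p = 0.00237) and Ccnd1 −1.66 ± 0.35 (adjusted p = 0.00788). For these 4 genes, then, GFP-high and GFP-low cells differed by less with the Prominin gate than without it. The 4 were lower calls among 10 members, against 6.50% of all genes called in either direction and 3.23% called lower, and the members' median was −0.88 against 0.00 over all genes. All 7 probe sets of Ccnd2, all 3 of Ccnd1 and 2 of 3 of Cdk6 were called, and the 4 calls were kept in all 20 alternative settings run. No value is given for Cdkn1a, which was dim in 3 of the 4 groups. Cdkn1c gave 0.79 ± 0.33 (adjusted p = 0.219), and Ccnd3, Cdk4, Cdkn1b and Cdkn2d lay between −0.55 and 0.02. Other lists differed between the 2 contrasts as well: 17 of 18 S-phase genes, all 17 G2/M genes and 10 of 13 radial glia markers were lower with the gate, and 11 of 15 markers of postmitotic neurons were higher. Their part in the members' values was not tested.

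**Figure D2:**
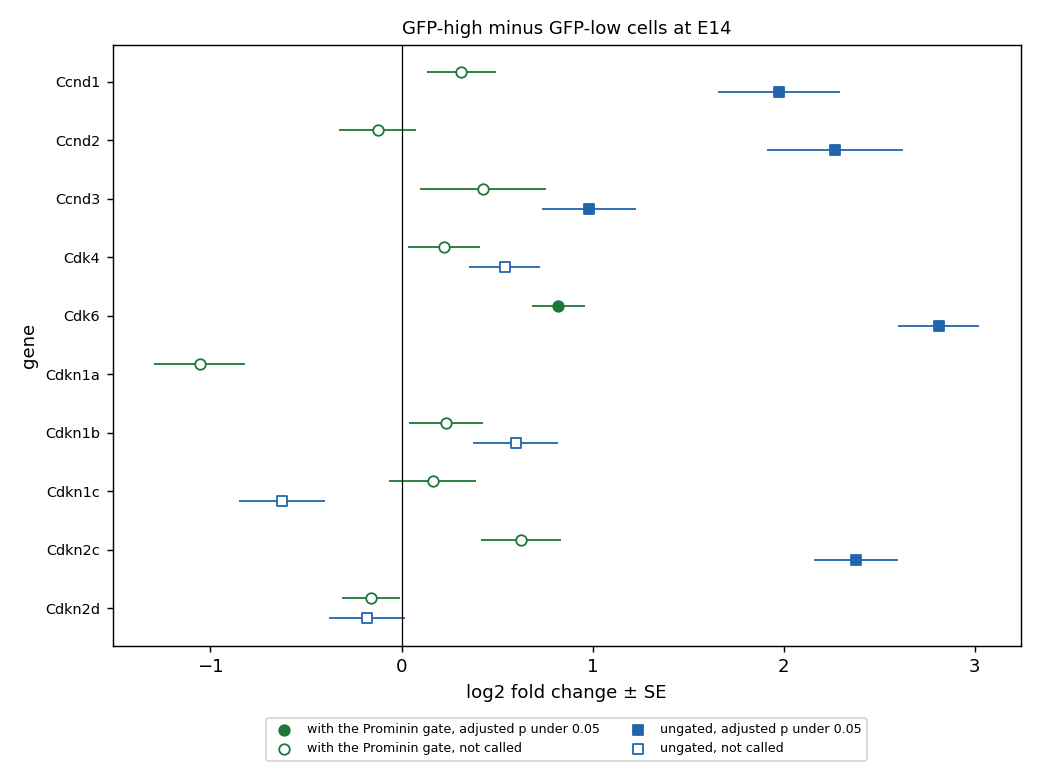
Log2 fold change of GFP-high over GFP-low E14 cells for each gene (brightest probe set), with bars of 1 standard error; circles are Prominin-selected cells and squares are ungated cells, and filled symbols passed an adjusted p under 0.05. The squares of Cdk6, Cdkn2c, Ccnd2 and Ccnd1 lie between 1.98 and 2.81 while their circles lie between −0.12 and 0.82; Cdkn1a has no square because both ungated groups were dim.

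Set against ungated cells of the same GFP level, Prominin-selected GFP-low cells had more Ccnd2, Cdk6, Ccnd1 and Cdkn2c, and more Cdkn1a. These were 5 of 10 genes, all higher, against 18.7% of all genes called in either direction and 10.8% called higher. Groups did not overlap for 6 of the 10, against 32.9% of all genes, and the members' median log2 fold change was 0.75 against 0.05. Ccnd2 read 11.89, 12.52 and 12.39 in Prominin-selected and 8.81, 8.88 and 10.12 in ungated GFP-low cells. The groups lay far apart (3.00 ± 0.28, 7.98-fold, adjusted p = 6.21e-06), and 6 of its 7 probe sets were called higher, up to 4.17 ± 0.28 on 1448229_s_at. Cdk6 read 8.75, 8.62 and 8.53 against 7.06, 7.09 and 7.57 (1.39 ± 0.17, adjusted p = 3.78e-05). Ccnd1 read 8.37, 8.45 and 8.48 against 7.46, 6.57 and 7.76 (1.17 ± 0.25, adjusted p = 0.00338), but its probe set 1417420_at gave −0.05 ± 0.27. Cdkn2c read 7.32, 7.61 and 7.73 against 6.39, 6.61 and 6.82 (0.95 ± 0.22, adjusted p = 0.00615).

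Cdkn1a read 6.92, 6.76 and 7.26 in Prominin-selected GFP-low cells and 4.69, 5.64 and 5.36 in ungated GFP-low cells. The ungated group was dim, so the size of its log2 fold change (1.75 ± 0.33, adjusted p = 0.00125) depends on the pseudocount and ran from 1.02 with a pseudocount of 64 to 2.39 with 1. With the labelling kit as a term, Cdkn1a was 2.92 (adjusted p = 0.0112), Ccnd2 3.07 (adjusted p = 0.0112) and Cdk6 1.33 (adjusted p = 0.0357), while Ccnd1 (1.38, adjusted p = 0.119) and Cdkn2c (0.66, adjusted p = 0.415) were no longer called. The size of that kit term came from ungated GFP-high cells alone, the only group with both kits. In GFP-low cells the kit and the gate changed together, so their parts cannot be told apart. Markers of postmitotic neurons were lower in Prominin-selected GFP-low cells in 9 of 15 genes. All 7 markers of Cajal-Retzius neurons were higher, with a summed signal of 3523 to 5036 against 393.2 to 631.5. Also higher were 8 of 18 S-phase genes, 10 of 17 G2/M genes and 5 of 13 radial glia markers, with 0 lower. Of 9 basal progenitor markers 5 were higher and 1 lower. The part of these lists in the Cdkn1a level and in the values of the other members was not tested.

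Among GFP-high cells, each gene on its brightest probe set, the gate went with more Cdkn1c and with less Cdkn2c and Cdk6. These 3 of 10 genes, 1 higher and 2 lower, are a share near the background of 20.6% of all genes called in either direction, with 12.2% called higher and 8.44% lower. Groups did not overlap for 5 of 10 genes, against 30.7% of all genes, and the members' median log2 fold change was −0.27 against 0.04. Of 15 markers of postmitotic neurons 8 were higher in the Prominin-selected cells, with a summed signal of 14127 to 17195 against 11285 to 12077. Lower were 12 of 18 S-phase genes, 12 of 17 G2/M genes, 8 of 13 radial glia markers and 3 of 9 basal progenitor markers, with 0 higher. The part of these lists in the members' values was not tested. Cdkn1c, the Kip inhibitor p57, read 10.55, 10.32, 10.28 and 10.33 in Prominin-selected and 8.88, 9.38 and 8.82 in ungated GFP-high cells. No arrays overlapped, and the difference was 1.34 ± 0.22 (2.54-fold, adjusted p = 0.00035) and was called in all settings run. Cdkn2c read 7.90, 7.97, 8.58 and 8.27 against 9.18, 8.72 and 9.06 (−0.80 ± 0.21, adjusted p = 0.00984), and its call was lost without ungated GFP-high replicate 1 (−0.71, adjusted p = 0.0526). Cdk6 was lower by a smaller step (−0.60 ± 0.16, adjusted p = 0.0104), and that call was lost with the kit as a term (−0.64, adjusted p = 0.0988). The Cdk6 probe set 1455287_at was not called (−0.20), with means of 9.58 in Prominin-selected and 9.78 in ungated GFP-high cells. The Cdk6 probe set 1460291_at was called lower (−1.28), with a dim mean in Prominin-selected cells. Ccnd3 gave −0.75 ± 0.31 (adjusted p = 0.0988), and −1.05 (adjusted p = 0.0117) without Prominin-selected GFP-high replicate 1.

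The probe sets of 1 gene went apart in this comparison. For Ccnd2, 4 of 7 probe sets were called higher in Prominin-selected GFP-high cells, by 0.97 to 2.36, and 1416124_at was called lower, by −1.19 ± 0.33 (adjusted p = 0.0148). The brightest, 1434745_at, was not called (0.60 ± 0.27, adjusted p = 0.124). So no direction is given for Ccnd2 here. For Ccnd1, 1417420_at (−1.45 ± 0.25) and 1417419_at (−0.77 ± 0.21) were called lower, while the brightest was not (−0.49 ± 0.24, adjusted p = 0.157). Cdkn1b also had a called probe set beside an uncalled brightest one: 1419497_at was higher in Prominin-selected cells at both GFP levels, by 0.92 ± 0.31 among GFP-high cells (adjusted p = 0.0409) and 1.10 ± 0.33 among GFP-low cells (adjusted p = 0.0255), against −0.30 ± 0.20 and 0.07 ± 0.21 on 1434045_at. The suffix x marks probe sets with probes that may also match other transcripts, as 1422441_x_at of Cdk4 and 1455956_x_at of Ccnd2.

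**Figure D3:**
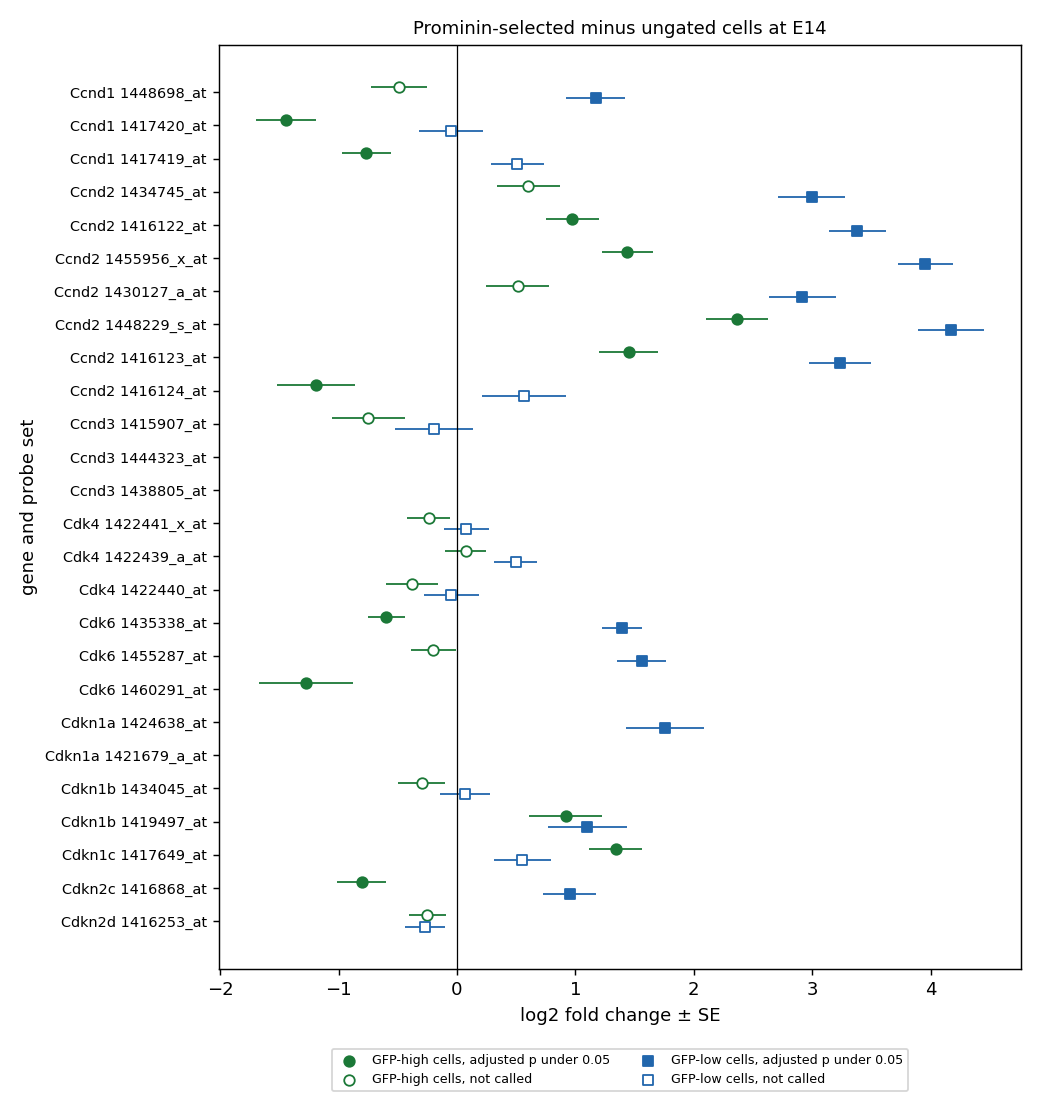
Log2 fold change of Prominin-selected over ungated E14 cells for the member probe sets, with bars of 1 standard error; circles are GFP-high cells, squares GFP-low cells, and filled symbols passed an adjusted p under 0.05. Probe sets dim in both groups are not drawn. The squares of 6 Ccnd2 probe sets lie between 2.92 and 4.17, whereas its circles run from −1.19 to 2.36.

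Between ages, E18 GFP-positive cells had less Cdk4, Ccnd1 and Cdkn1c than either E14 Prominin-selected group. The E18 arrays serve in both comparisons, so the 2 sets of values are not independent of each other. Against GFP-high cells 5 of 10 genes were called, 1 higher and 4 lower, against 24.0% of all genes called in either direction, 10.7% higher and 13.3% lower. Against GFP-low cells 4 of 10 were called, all lower, against 15.2% of all genes called in either direction and 8.72% lower. Groups did not overlap for 6 and 8 of the 10 genes, against 28.2% and 27.7% of all genes. The members' median log2 fold change was −0.45 against GFP-high and −0.48 against GFP-low cells, with −0.03 and −0.05 over all genes. Markers of other cells moved with age too. Of 9 basal progenitor markers 6 were lower at E18 than in GFP-high cells (median −2.24) and 5 lower than in GFP-low cells (median −1.57), with 0 higher, and their summed signal was 4231 to 5092 at E18 against 12856 to 15174 in GFP-high and 9552 to 10422 in GFP-low cells. Of 13 radial glia markers 2 were higher and 8 lower than in GFP-high cells, and 3 were higher and 4 lower than in GFP-low cells. Their part in the members' values was not tested.

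Cdk4, the kinase bound by all 3 D-type cyclins, read 10.51, 10.72, 10.49 and 10.35 at E18, against 12.07, 11.50, 11.79 and 11.50 in E14 GFP-high and 11.38, 11.76 and 11.34 in E14 GFP-low cells. Every E18 array lay below every E14 array. The log2 fold change was −1.19 ± 0.17 against GFP-high cells (2.29-fold lower, adjusted p = 0.000382) and −0.97 ± 0.19 against GFP-low cells (1.96-fold lower, adjusted p = 0.00454). All 3 Cdk4 probe sets were called in both comparisons, between −1.21 and −0.95, with nearly equal sizes on the 3.

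Ccnd1 read 7.32, 7.89, 7.52 and 7.71 at E18, against 9.09, 8.57, 8.61 and 8.72 in E14 GFP-high and 8.37, 8.45 and 8.48 in E14 GFP-low cells. E18 again lay below both groups without overlap, by −1.14 ± 0.17 (adjusted p = 0.000416) and −0.82 ± 0.18 (adjusted p = 0.00941). Of its other probe sets, 1417419_at was called lower in both comparisons and 1417420_at in neither. Cdkn1c read 9.41, 9.82, 8.95 and 8.77 at E18, against 10.55, 10.32, 10.28 and 10.33 in GFP-high and 10.33, 10.08 and 10.20 in GFP-low cells. The E18 arrays were more spread than the E14 arrays and all below them (−1.13 ± 0.21, adjusted p = 0.00189, and −0.97 ± 0.23, adjusted p = 0.0129). A D-type cyclin, its kinase and an inhibitor were thus lower in the same E18 arrays.

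Ccnd2 depended on the probe set. The brightest gave −0.48 ± 0.19 (adjusted p = 0.0842) against GFP-high and −0.61 ± 0.20 (adjusted p = 0.0609) against GFP-low cells. Ccnd2 passed in 3 of 15 alternative settings against GFP-high cells, the lowest adjusted p being 0.0327 on the deposited scale. Against GFP-low cells it passed in 4 of 14, among them without GFP-low replicate 1 (−0.79, adjusted p = 0.0296), with the lowest adjusted p of 0.0223 on the deposited scale. Its probe sets 1416122_at and 1455956_x_at were called lower in both comparisons, by −1.05 ± 0.18 and −1.09 ± 0.19 against GFP-high cells, while 1416123_at gave 0.19 ± 0.22. Ccnd3 was not called in either (−0.78 ± 0.31, adjusted p = 0.091, and −0.35 ± 0.33, adjusted p = 0.548).

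Cdk6 lay between the 2 E14 groups. It read 9.02, 9.15, 8.97 and 9.04 at E18, below the GFP-high arrays (−0.41 ± 0.13, adjusted p = 0.0379) and above the GFP-low arrays (0.41 ± 0.14, adjusted p = 0.0686), without overlap with either. The call against GFP-high cells was lost without any 1 of 7 of the 8 arrays (adjusted p = 0.0523 to 0.106) and kept only without E18 replicate 3. The probe set 1455287_at gave −0.92 ± 0.14 against GFP-high cells (adjusted p = 0.000493) and −0.28 ± 0.15 against GFP-low cells (adjusted p = 0.258), so the sign against GFP-low cells differed between the 2 probe sets.

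The remaining inhibitors gave 3 different pictures. Cdkn1a was 5.69, 6.60, 6.30 and 5.81 at E18 and 6.92, 6.76 and 7.26 in E14 GFP-low cells, lower without overlap (−0.88 ± 0.24, adjusted p = 0.0259). That call was lost without E18 replicate 2 or 5 or GFP-low replicate 1 or 3 (adjusted p = 0.0559 to 0.103). Of 7 Cajal-Retzius markers 5 were lower and 0 higher at E18 than in GFP-low cells, with a summed signal of 875.7 to 1605 against 3523 to 5036, and their part in the Cdkn1a value was not tested. Against GFP-high cells Cdkn1a gave 0.18 ± 0.22 (adjusted p = 0.647). Cdkn2d, the INK4 inhibitor p19, was the only member called higher at E18, with 8.79, 9.06, 8.96 and 8.97 against 8.35, 8.70, 8.46 and 8.46 in GFP-high cells (0.45 ± 0.14, adjusted p = 0.0357). Its call was lost without any 1 of E18 replicates 3, 4 and 5 and GFP-high replicates 1, 3 and 4 (adjusted p = 0.0742 to 0.0815). Against GFP-low cells Cdkn2d gave 0.29 ± 0.15 (adjusted p = 0.242). Cdkn2c was called in neither comparison (−0.42 ± 0.19, adjusted p = 0.156, and 0.21 ± 0.21, adjusted p = 0.585).

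For Cdkn1b (p27) the 2 probe sets disagreed most. The brightest, 1434045_at, read 9.72, 9.47, 9.37 and 9.46 at E18 and gave 0.19 ± 0.18 (adjusted p = 0.533) against GFP-high and 0.42 ± 0.19 (adjusted p = 0.176) against GFP-low cells. The other, 1419497_at, averaged 5.24 ± 0.42 at E18 against 7.43 ± 0.43 in GFP-high and 7.30 ± 0.29 in GFP-low cells, and was called lower in both comparisons (−2.19 ± 0.25, adjusted p = 7.37e-05, and −2.06 ± 0.27, adjusted p = 0.000451). Its E18 mean was dim, so these sizes depend on the pseudocount. No direction is given for the gene.

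**Figure D4:**
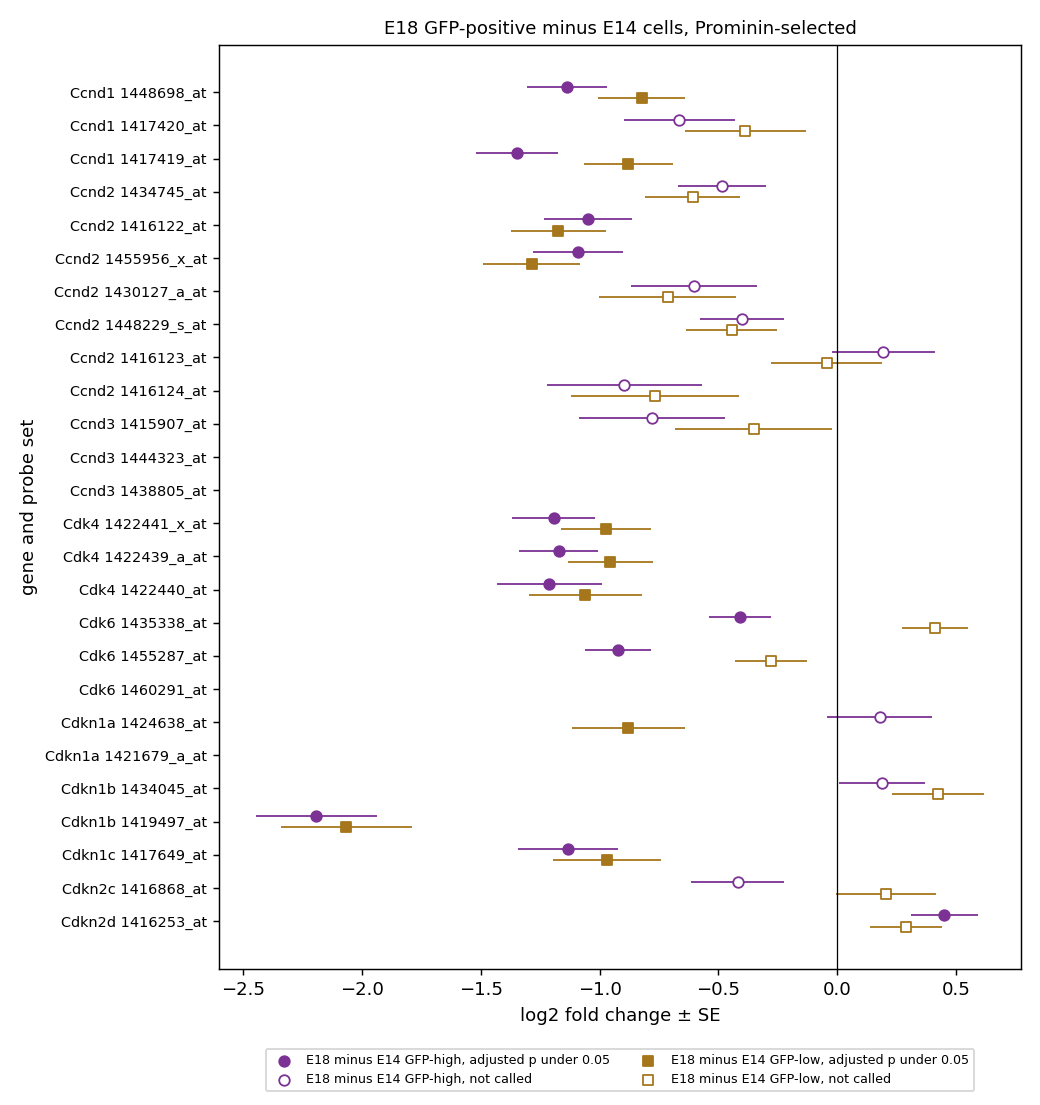
Log2 fold change of E18 GFP-positive over E14 Prominin-selected cells for the member probe sets, with bars of 1 standard error; circles are set against E14 GFP-high cells, squares against E14 GFP-low cells, and filled symbols passed an adjusted p under 0.05. Probe sets dim in both groups are not drawn. The 3 probe sets of Cdk4 sit together near −1 in both comparisons, and 1419497_at of Cdkn1b lies furthest left at −2.19 and −2.06.

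Of the wider G1 network, the genes that act after the D-type cyclins went mostly the same way as the cyclins in ungated cells. Of 9 genes for E and A cyclins, Cdk2 and their activators, 6 were higher and 0 lower in ungated GFP-high than GFP-low cells (median 1.65), among them Cdk2 (2.41 ± 0.22, adjusted p = 0.000912), the kinase of the G1 to S step, and Ccna2 (2.75 ± 0.31, adjusted p = 0.00169), the S-phase cyclin. Of 13 genes of the retinoblastoma and E2F family 9 were higher and 0 lower (median 1.29), including the pocket protein gene Rbl1 (2.45 ± 0.28, adjusted p = 0.0018) and E2f8 (2.78 ± 0.31, adjusted p = 0.00167), a repressor E2F. Over all genes 6.83% were called higher in ungated GFP-high cells and 14.1% in either direction. With the Prominin gate limma called 0 of the 22 listed genes, against 0.726% of all genes. Of the 9 and the 13 genes, 2 and 2 had an unadjusted p under 0.05. The difference of the 2 contrasts was called for 5 of the 9 and 6 of the 13, all lower with the gate, against 3.23% of all genes.

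At E18 the E cyclin Ccne1 was lower against both E14 groups, by −1.77 ± 0.15 (adjusted p = 8.7e-06) against GFP-high and −1.43 ± 0.16 (adjusted p = 0.000172) against GFP-low cells. In all, 6 of the 9 cyclin and Cdk2 genes were lower against GFP-high cells and 0 higher, where 13.3% of all genes were lower. Against GFP-low cells 1 of the 9 was lower and 0 higher, a share near the 8.72% of all genes called lower. Of the retinoblastoma and E2F genes 5 and 4 were lower and 0 higher, E2f6 by −1.58 ± 0.20 (adjusted p = 0.000136) and −1.53 ± 0.22 (adjusted p = 0.000628). Between Prominin-selected and ungated GFP-high cells 4 of the 9 and 9 of the 13 were lower and 0 higher, among them Cdk2 (−1.82 ± 0.21, adjusted p = 1.26e-05) and Rbl1 (−1.81 ± 0.25, adjusted p = 5.76e-05). Between Prominin-selected and ungated GFP-low cells 4 of the 9 were higher and 0 lower, and 3 of the 13 were higher and 1 lower. Over all genes 8.44% were called lower with the gate among GFP-high cells. Among GFP-low cells 10.8% of all genes were called higher with the gate and 18.7% in either direction.

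Genes that act on the stability of G1 regulators were called in both directions. Of 11 measured ubiquitin ligase genes, 2 were higher and 1 lower in ungated GFP-high cells, where 14.1% of all genes were called. Skp2, which directs p27 to degradation, was higher by 2.18 ± 0.35 (adjusted p = 0.00698), and Fbxo31, which acts on cyclin D1, was lower by −1.41 ± 0.29 (adjusted p = 0.0192). At E18 against GFP-high cells 1 was higher, Fbxw7 (1.34 ± 0.18, adjusted p = 0.000175), which directs cyclin E to degradation, and 3 were lower, among them Skp2 (−0.97 ± 0.26, adjusted p = 0.0153), where 24.0% of all genes were called. Of 3 other Cdk inhibitors only Cdkn3, a phosphatase that acts on Cdks, was called: higher in ungated GFP-high than GFP-low cells (1.74 ± 0.36, adjusted p = 0.0205), lower at E18 than in GFP-high cells (−1.05 ± 0.20, adjusted p = 0.00187) and higher in Prominin-selected than ungated GFP-low cells (0.90 ± 0.29, adjusted p = 0.0383). The gene of p53 itself, Trp53, was not among the measured genes. Among 11 measured p53 targets other than Cdkn1a, limma called 0 in GFP-high against GFP-low Prominin-selected cells (1 higher and 2 lower at an unadjusted p under 0.05). It also called 0 of these targets in E18 against E14 GFP-low cells (again 1 higher and 2 lower at an unadjusted p under 0.05). Between Prominin-selected and ungated GFP-low cells 1 target was higher, Btg2 (0.67 ± 0.18, adjusted p = 0.0122), an antiproliferative gene, and 3 were lower. Of all genes 18.7% were called there.

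The S-phase and G2/M lists give the state of the rest of the cell cycle beside the members. In ungated GFP-high cells all 18 S-phase genes and all 17 measured G2/M genes were higher than in GFP-low cells, against 6.83% of all genes. Their medians were 2.13 and 2.76. Among Prominin-selected E14 cells 0 of 18 S-phase and 5 of 17 G2/M genes were higher in GFP-high cells (medians 0.52 and 0.72). None was lower, and 0.159% of all genes were called higher. At E18, 15 of 18 and 16 of 17 were lower than in GFP-high cells (medians −0.97 and −1.33), against 13.3% of all genes. Against GFP-low cells 6 of 18 and 9 of 17 were lower, with 1 S-phase gene higher, where 8.72% of all genes were lower. Mean levels of the S-phase list were 7.96 to 8.11 on E18 arrays, 8.85 to 9.22 in Prominin-selected GFP-high cells, 8.33 to 8.59 in Prominin-selected GFP-low cells, 9.94 to 10.01 in ungated GFP-high cells and 7.56 to 8.10 in ungated GFP-low cells. Markers of postmitotic neurons ran the other way in part: at E18 10 of 15 were higher and 1 lower than in GFP-high cells, with a summed signal of 25646 to 28500 against 14127 to 17195. Against GFP-low cells 4 were higher and 3 lower, with a summed signal of 25646 to 28500 against 25894 to 27283. Their part in the age values of the members was not tested.

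**Figure D5:**
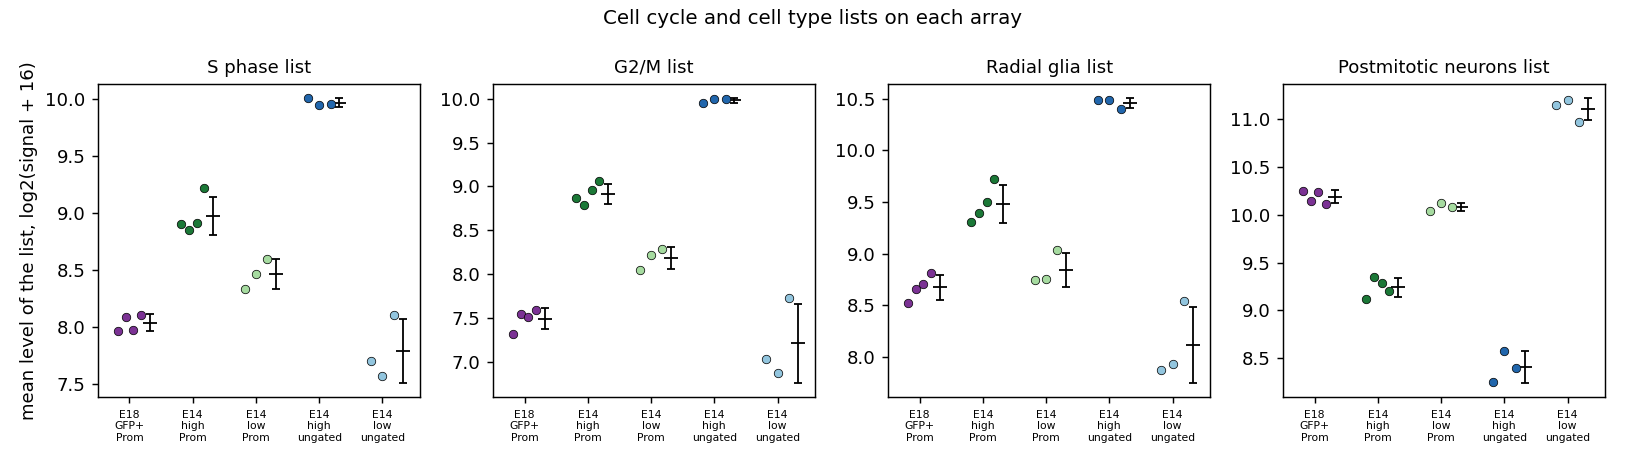
Mean level, as log2(signal + 16), of the S-phase, G2/M, radial glia and postmitotic neuron lists on each of the 17 arrays, with E18 cells at the left; dashes and bars are the group's mean and SD, and the axes do not start at 0. The S-phase, G2/M and radial glia lists are highest in ungated GFP-high cells, where the neuron list is lowest.

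For the 8 members whose group means spanned at least 1 unit, the genes with the most similar pattern over the 5 groups were found by the root mean square difference of centred group means. These points share the same arrays, so the likeness is a description. Ccnd1 was nearest to Mcm2, a subunit of the replicative helicase (0.0718), and Cdk4 to Ube2s (0.0409), a ubiquitin-conjugating enzyme of the anaphase-promoting complex. Cdkn2c was nearest to Smc4, a condensin subunit (0.0854). The next genes were close behind: Pcgf5 for Ccnd1 (0.0734), Cdh6 for Cdk4 (0.0530) and Psat1 for Cdkn2c (0.0918). Cdk6 was nearest to the cadherin gene Fat1 (0.147) and to Sox1 (0.148), a transcription factor of neural progenitors. Ccnd2 had no close partner: its nearest gene, Sparc, differed by 0.261. Cdkn1a was nearest to Rcan2 (0.168), Cdkn1c to Smpd1 (0.0938) and Ccnd3 to Phkb (0.0346).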

How the data were processed

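Affymetrix mouse expression arrays were read from the deposited value table, which holds 45101 probe sets for 17 arrays. Its values are linear intensities as deposited by the authors. Each array has a mean of 150 once values under its 2nd and over its 98th percentile are set aside, and the summarization software is not given in the sources used here. Of these, 34945 probe sets with 1 gene symbol (18193 genes) were kept, and 64 control, 932 several-symbol and 9160 unnamed probe sets were left out; 34741 matched RefSeq. Intensities were taken as log2(signal + 16) and quantile-normalized, since array medians differed by up to 0.43. Replicates were separate samples per the labels, and no 2 arrays were identical.

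Groups were compared with limma 3.58.1 in R 4.3.3 (lmFit, eBayes, Benjamini-Hochberg over all probe sets), tested on simulated data. The Prominin-selected arrays (11), the ungated arrays (6) or all 17 entered a fit, the last for contrasts between gated and ungated cells. Figures used Python 3.11.15 and matplotlib 3.10.9. Whether same-numbered samples share a litter or a sort is not given. Of 27 same-numbered pairs across groups, 0 correlated above 0.1 in their deviations. With so few arrays per group this cannot exclude pairing.

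All members are named. Of other lists, up to 4 called genes with the lowest p per list and comparison could be named, and the nearest genes by pattern. Members and lists were chosen with earlier results of these data known. Alternatives were the deposited scale, pseudocounts of 1 and 64, 1 probe set per gene, no probe sets among the dimmest 40%, the replicate number, the kit, a single fit on all arrays, and leaving out arrays.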

Additional observations from a re-analysis of the deposited data

Results flagged for a closer look

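Prominin-selected GFP-high replicate 1 stood far above the other 3 arrays of its group on 3 probe sets. It read 11.53 on 1430127_a_at of Ccnd2 (next array 10.80), 12.09 on 1455956_x_at of Ccnd2 (next 11.55) and 8.39 on 1415907_at of Ccnd3 (next 7.26). Its control probe sets differed from its group as well. The Gapdh 3′ minus 5′ log2 difference was 0.54 against 1.56 to 1.71 on the other 3 arrays. The Dap signal was 848.8 against 4.3 to 16.9. E18 replicate 4 stood above its group on the dim probe set 1444323_at of Ccnd3, at 5.76 (next 5.09). These were 4 of 52 groups of 4 arrays examined with Dixon's criterion, which chance meets in about 1 of 20.

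The GFP contrast differed between Prominin-selected and ungated E14 cells for 13 of the 26 member probe sets, tested as an interaction with limma. Over all 34945 probe sets 1793 were called in either direction. The difference (gated minus ungated, log2) was −1.66, −1.39 and −1.28 on the 3 probe sets of Ccnd1, −2.39, −2.41, −2.52, −2.41, −1.81, −1.79 and −1.76 on the 7 of Ccnd2, −1.99 and −1.76 on 2 of Cdk6 and −1.75 on that of Cdkn2c.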

How the results depend on the processing

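Of 27 member calls over the 7 comparisons, 14 were kept in all settings run and 13 were lost in at least 1. Of 43 results not called, 9 passed in at least 1 setting, and no call reversed its sign. Signs did change among uncalled results, as for Cdkn2d in the difference of GFP contrasts (5 of 20 settings). Cdkn1b for the gate in GFP-low cells changed sign in 3 of 13. For GFP-high against GFP-low Prominin-selected cells, with 1 member called, the count was 0 with a pseudocount of 1 or without both GFP-high replicate 1 and GFP-low replicate 3, and 2 with a pseudocount of 64, with 1 probe set per gene or without the dimmest 40%. Leaving out 1 array gave 0 to 1. Calls over all probe sets there were 196, against 66, 1, 558, 300 and 442 in those settings and 9 to 190 with 1 array out. In ungated cells 5 members were called, 3 without both GFP-high replicate 1 and GFP-low replicate 2 (1668 probe sets against 4172), with 2588 probe sets at a pseudocount of 1, 6318 in the fit on all arrays and as few as 2449 with 1 array out. For E18 against GFP-high cells 5 members were called, 3 with a pseudocount of 1 and 3 to 4 with 1 array out. For Prominin-selected against ungated GFP-low cells 5 were called, and 3 with the kit as a term, where the calls over all probe sets were 863 against 6878. For GFP-high cells that term gave 3716 against 7651. With 1 probe set per gene, fewer were tested, and calls were 4697 against 7860 for E18 against GFP-high cells, 2972 against 5392 for E18 against GFP-low cells, and 3833 against 7651 and 3532 against 6878 for the gate in GFP-high and GFP-low cells.

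With the replicate number as a block, the members called were 0 and 4 for the GFP contrasts in Prominin-selected and ungated cells. They were 3 and 0 for E18 against GFP-high and GFP-low cells, 3 and 5 for the gate and 4 for the difference of GFP contrasts. Calls over all probe sets were then 0, 2646, 4858, 1958, 6572, 5854 and 1351. Correlations of same-numbered samples were −0.17 to 0.053.

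Signal limits every fold whose lower group was dim, since its size depends on the pseudocount. Among called members these were Cdkn1a for the gate in GFP-low cells, 1419497_at of Cdkn1b for age, 1416123_at and 1416124_at of Ccnd2 and 1460291_at of Cdk6 in ungated cells, 1416123_at of Ccnd2 for the gate in GFP-low cells and 1460291_at of Cdk6 for the gate in GFP-high cells. Among other genes named they were E2f8 and Cdkn3 in ungated cells, and Cdkn3 for age and for the gate in GFP-low cells.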
